A study of Mus musculus with 6 samples.

Results

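The potassium channel genes are described here in the paraventricular nucleus (PVN) of the mouse hypothalamus after an electroconvulsive seizure (ECS). They are the genes whose only symbol in the array annotation starts with Kcn, the prefix for potassium channel pores and their accessory subunits. The rule found 62 genes on 90 probe sets, out of 12393 genes on 22626 probe sets in all. A gene was represented by its probe set with the highest mean signal (normalized, on the log2 scale) over the 6 arrays, which was a choice to make for the 20 genes with several. The rule used no difference between the groups.

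The arrays formed 3 groups of 2. Sham mice were anaesthetised with isoflurane and handled like the others without a shock, and their tissue was taken at 2 h. ECS mice received 1 bilateral shock of 25 mA for 1 s under isoflurane, and their tissue was taken at 2 h or at 6 h. All were C57Bl/6 mice with no transgene named in the labels, whose ages are not given there, and no sham group was collected at 6 h, so any difference between the 6 h arrays and sham also spans a difference in collection time. Each array holds RNA pooled from 2 to 3 animals, from tissue cut by laser microdissection out of 7 μm sections, and the experiment was run on separate animals for replicate 1 and replicate 2. With 2 arrays a group, an exact permutation test cannot go below p = 0.333.

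Potassium channels let potassium leave the cell, which holds the resting potential, ends the action potential and sets the pause before the next one. Voltage-gated channels open on depolarisation, calcium-activated channels after calcium entry, inward rectifiers near rest (some of them on command of G proteins or when ATP falls), and tandem-pore channels carry a standing leak. In the magnocellular neurons of the PVN, which release oxytocin and vasopressin, a transient A-type current and calcium-activated after-hyperpolarisations are known to shape the firing that drives hormone release.

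Promoter windows are shown for 3 genes to which the results below return, since seizures are known to induce Fos and Jun proteins, which bind the AP-1 site. Of these, Kcnip3 and Kcnk2 are among the only 4 potassium channel genes found with an AP-1 match. Only the window with the match is shown for each, so the windows shown are not typical of the potassium channel genes. Each window is the 250 bases before a transcription start annotated by RefSeq on GRCm38.p6, written 5′ to 3′ on the strand of the gene, with any AP-1 match (TGANTCA, where N is any base), cyclic AMP response element (TGACGTCA) or its core (TGACG) in capitals.
Kcnj6, chr16:94997697-94997946, minus strand: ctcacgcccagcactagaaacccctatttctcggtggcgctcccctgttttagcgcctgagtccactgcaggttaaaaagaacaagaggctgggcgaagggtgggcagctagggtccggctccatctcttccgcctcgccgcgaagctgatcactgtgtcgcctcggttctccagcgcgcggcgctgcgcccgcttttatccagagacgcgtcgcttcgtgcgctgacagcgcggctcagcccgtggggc
Kcnj6, chr16:94856691-94856940, minus strand: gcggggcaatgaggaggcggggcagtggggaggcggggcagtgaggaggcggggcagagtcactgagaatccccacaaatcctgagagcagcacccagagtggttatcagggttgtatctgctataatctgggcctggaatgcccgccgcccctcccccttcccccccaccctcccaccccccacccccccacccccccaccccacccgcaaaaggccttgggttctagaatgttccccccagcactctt
Kcnk2, chr1:189344193-189344442, minus strand: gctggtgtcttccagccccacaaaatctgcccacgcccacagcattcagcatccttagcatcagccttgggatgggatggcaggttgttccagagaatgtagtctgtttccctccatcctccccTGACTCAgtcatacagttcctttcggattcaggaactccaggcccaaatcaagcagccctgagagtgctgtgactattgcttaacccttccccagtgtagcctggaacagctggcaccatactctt
Kcnip3, chr2:127522095-127522344, minus strand: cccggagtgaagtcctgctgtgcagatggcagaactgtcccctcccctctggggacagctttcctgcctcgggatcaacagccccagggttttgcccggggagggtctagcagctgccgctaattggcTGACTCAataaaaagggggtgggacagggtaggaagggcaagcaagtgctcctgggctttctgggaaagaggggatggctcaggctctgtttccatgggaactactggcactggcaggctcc

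Both windows of Kcnj6 held none of the 3 motifs, and the capitals in the windows of Kcnip3 and Kcnk2 mark 1 AP-1 match each; both genes have further annotated starts whose windows hold none. Both strands were searched, and a match to the full cyclic AMP response element is also a match to its core. Windows were found for 50 of the 62 genes, 68 in all. The AP-1 site stood in 4 of the 68 (those of Kcne3, Kcnip3, Kcnip4 and Kcnk2) against 6.75% of the 32851 windows of all genes. The full cyclic AMP response element stood in 0 of the 68 against 1.55%, and its core in 10 of the 68 against 17.8%. A match describes the letters and shows no binding.

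Signals of the potassium channel genes were low on these arrays. Of the 62 genes, 24 (38.7%) lay at or above the median of the array in at least 2 of the 6 arrays, against 59.1% of all 12393 genes. Among these 24, 13 passed in every array and 11 in 2 to 5 arrays. Just inside the limit, with 2 arrays each, stood Kcnh3, Kcnh7 and Kcnn3. Just outside it, with 1 array each, stood Kcnab1, Kcnd1, Kcnj3, Kcnk10, Kcnn1, Kcnn2 and Kcnn4. The remaining 31 lay below the median in all 6 arrays. By array, 21 and 24 of the 62 genes reached the median in sham, 18 and 19 at 2 h, and 20 and 21 at 6 h. As shares these were 33.9% and 38.7%, 29.0% and 30.6%, and 32.3% and 33.9%. Over all genes the share was 53.1% to 54.1% in every array. The counts at 2 h were the lowest, by a few genes only. A probe set below the median may mean little transcript or a probe set that reads its transcript poorly, so no order of abundance between genes was drawn from it.

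**Figure D1:**
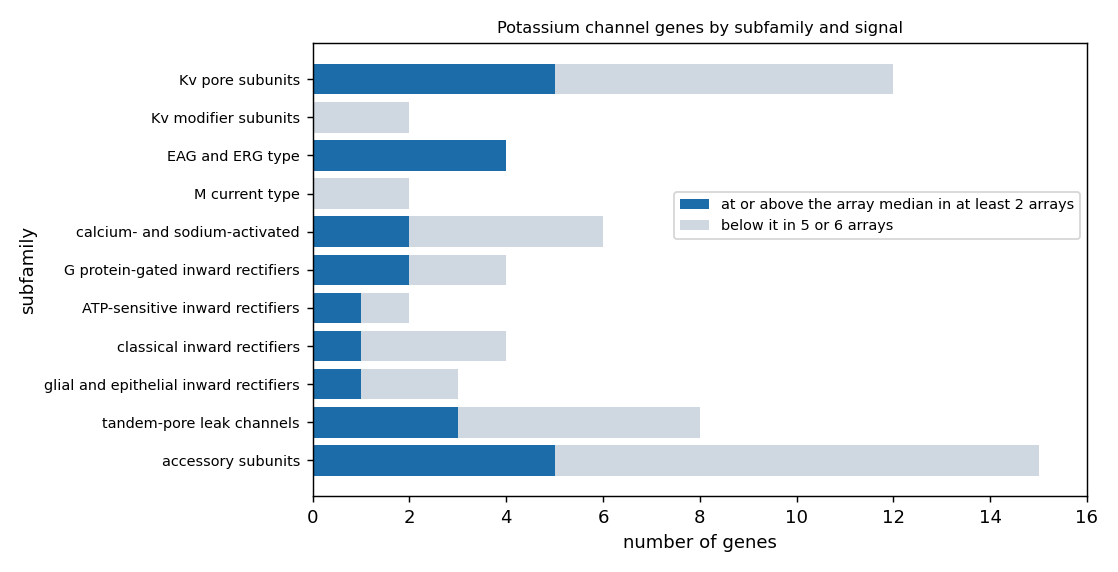
Number of potassium channel genes (x axis) in each subfamily (y axis), split into those at or above the array median in at least 2 of the 6 arrays and those below it in 5 or 6. Subfamilies are grouped by gene symbol. All 4 Kcnh genes (EAG and ERG type) passed, against 5 of 12 Kv pore genes, 5 of 15 accessory subunit genes and 0 of the 4 genes of the Kv modifier and M current types.

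Subfamilies were grouped by gene symbol, and a subfamily name need not hold for every member. The only subfamily that passed whole was that of the Kcnh genes (Kcnh1, Kcnh2, Kcnh3 and Kcnh7), named the EAG and ERG type here. They are voltage-gated channels of slow or unusual gating. Among the Kv pore genes, Kcna1, Kcna5, Kcnc4, Kcnd2 and Kcnd3 passed, and 7 did not. Of 8 tandem-pore leak channels, Kcnk1, Kcnk2 and Kcnk3 passed. The 6 genes grouped as calcium- and sodium-activated were Kcnma1, Kcnn1, Kcnn2, Kcnn3, Kcnn4 and Kcnu1. Of these, Kcnma1, the pore of the large-conductance calcium-activated channel, and Kcnn3, a small-conductance channel, passed. The inward rectifiers gave Kcnj6 and Kcnj9 of 4 G protein-gated genes, Kcnj8 of 2 ATP-sensitive genes, Kcnj12 of 4 classical genes and Kcnj10, the rectifier of astrocytes and oligodendrocytes, of 3 glial and epithelial genes. Of 15 accessory subunit genes Kcnab2, Kcnip1, Kcnip3, Kcnip4 and Kcnmb4 passed. On the log2 scale used below, log2 of the signal plus 16 after quantile normalization, the 38 genes that did not pass lay between 4.01 and 5.86, where the floor set by the offset is 4.

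None of the potassium channel genes changed in any of the 3 comparisons by limma at an adjusted p under 0.05. The count was 0 of 24 tested genes at 2 h, at 6 h and between the times, where 0% of the 12662 probe sets tested were called in each. At an unadjusted p under 0.05 the tested genes numbered 0 at 2 h (background 4%), 0 at 6 h (background 3.76%) and 2 between the times, Kcnj6 and Kcnd3 (8.33%, background 3.44%). The smallest adjusted p among them was 0.999 at 2 h, 1 at 6 h and 0.999 between the times. The median standard error of a log2 change was 0.448, which gives a 95% interval of about 0.99 to either side, or close to 2-fold. In most of these genes a change of under 2-fold was not detectable with this number of arrays, even at an unadjusted p under 0.05. After adjustment over 12662 probe sets larger changes also went uncalled. Kcnj6 between the times, at 3.33-fold, had an adjusted p of 0.999 in limma.

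For a few genes the arrays were close enough to bound the change. The 95% interval lay within 2-fold in both directions, at 2 h, for Kcnc4, Kcnip1, Kcnip4, Kcnma1 and Kcnmb4. At 6 h against sham it did so for those 5 and for Kcnj10. Between the times it did so for Kcnc4, Kcnip1, Kcnj9, Kcnk1, Kcnma1 and Kcnmb4. These bounds hold for the chosen probe sets only. Kcnip1, Kcnip4, Kcnk1 and Kcnma1 each had another tested probe set whose interval reached beyond 2-fold in the same comparison. The second probe set of Kcnma1 read 6.75 and 6.46 in sham and 5.85 and 5.58 at 2 h, a difference of −0.89 (unadjusted p = 0.0406, adjusted p = 0.999 in limma).

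**Figure D2:**
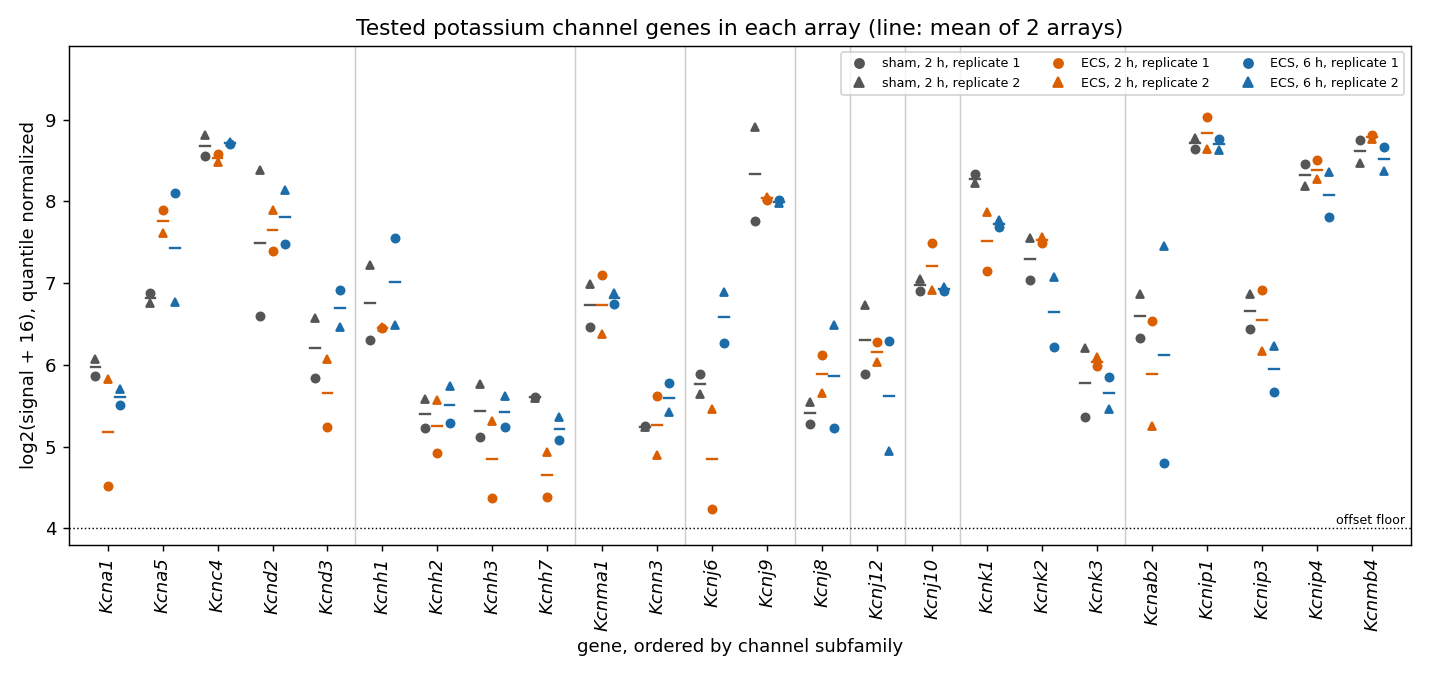
Signal of the 24 tested potassium channel genes in each of the 6 arrays (y axis, log2 of signal plus 16, quantile normalized), by subfamily along the x axis, with circles for replicate 1, triangles for replicate 2 and a line for the mean of the 2 arrays of a group. Kcnj6 lies lowest at 2 h and highest at 6 h, whereas the points of Kcnc4, Kcnip1 and Kcnmb4 stay between 8.37 and 9.03 in all groups.

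Kcnj6 encodes a pore subunit of the G protein-gated inward rectifier, the channel through which receptors such as those for GABA (type B) and opioids slow neurons. Its log2 signal was 5.88 and 5.64 in sham, 4.24 and 5.45 at 2 h, and 6.27 and 6.90 at 6 h (replicates 1 and 2). On the deposited scale these are 35.3 and 44.6, 2.4 and 29.1, and 58.2 and 116.2. The 3 groups did not overlap, with both arrays at 2 h below sham and both at 6 h above it.

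The difference of Kcnj6 from sham was −0.92 at 2 h (95% interval −2.02 to 0.19, unadjusted p = 0.0961, adjusted p = 0.999 in limma) and 0.82 at 6 h (−0.29 to 1.93, unadjusted p = 0.132, adjusted p = 1). Between the times it was 1.73 higher at 6 h, or 3.33-fold (95% interval 0.63 to 2.84), the largest difference among the 24 tested genes in any comparison. Its unadjusted p was 0.00563 and its adjusted p 0.999, so it did not pass. Kcnj6 reached the array median in both sham arrays and both at 6 h, but in neither at 2 h. It thus entered the test through the groups in which it was higher. A paired fit, blocked on the replicate number, gave an adjusted p of 0.733. In replicate 1 and replicate 2 the difference was −1.64 and −0.19 at 2 h, 0.38 and 1.25 at 6 h, and 2.03 and 1.44 between the times. Much of the low value at 2 h came from replicate 1, and without that array the difference was −0.31 at 2 h and 1.14 between the times.

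Kcnj6 has 5 probe sets on the array and only 1 of them reached the array median in any array. The other 4 lay between 4.02 and 5.21, close to the floor, and none separated the 3 groups as the brightest did. Averaged over all 5, the gene differed by −0.29 at 2 h, 0.09 at 6 h and 0.38 between the times, and no longer passed the filter.

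**Figure D3:**
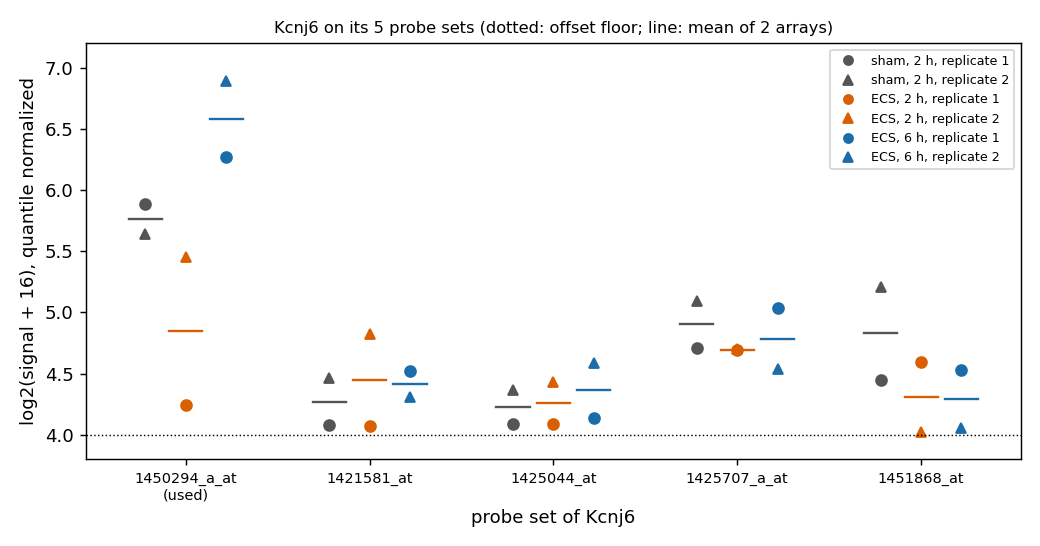
Log2 of signal plus 16 (y axis, quantile normalized) of the 5 probe sets of Kcnj6 (x axis) in the 6 arrays, with circles for replicate 1, triangles for replicate 2, a line for the mean of the 2 arrays of a group and a dotted line at the floor of 4. The probe set used here, from 4.24 to 6.90, lies below sham at 2 h and above it at 6 h, and the other 4 stay between 4.02 and 5.21.

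The tested genes whose log2 signal ran most like that of Kcnj6 over the 6 arrays, out of 7320 others, were Rxrb (Pearson r = 0.986), Vps18 (0.969), Ino80c (0.969), Castor2 (0.966) and Prr12 (0.962). They were picked from so many genes over 6 arrays that these values describe the arrays only.

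Of the other G protein-gated genes, Kcnj9, a partner subunit of the same channel, read 7.76 and 8.91 in sham, 8.02 and 8.05 at 2 h, and 8.01 and 7.98 at 6 h. Its sham arrays stood farther apart than its group means. Kcnj3 and Kcnj5, also pore subunits, did not pass the filter. Among the other inward rectifiers, Kcnj12 of the classical strongly rectifying type read 5.88 and 6.73 in sham, 6.28 and 6.03 at 2 h, and 6.29 and 4.95 at 6 h. Its groups overlapped, and the difference at 6 h of −0.68 (adjusted p = 1 in limma) was −0.01 without replicate 2 at 6 h. Kcnj8, the pore of the ATP-sensitive channel of mural cells, was 0.47 above sham at 2 h without overlap (SE 0.501, adjusted p = 0.999). It reached the array median in ECS arrays only, so it entered the test through the groups in which it was higher.

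The leak channel Kcnk1 had the smallest p of all 24 genes at 2 h. It read 8.33 and 8.23 in sham, 7.15 and 7.87 at 2 h, and 7.69 and 7.77 at 6 h, so every ECS array lay below both sham arrays. The difference was −0.77 at 2 h (SE 0.353, unadjusted p = 0.0525, or 0.0362 with the replicate block, adjusted p = 0.999 in limma) and −0.55 at 6 h (unadjusted p = 0.147, adjusted p = 1). Without replicate 1 at 2 h the first of these was −0.41. The second probe set of the gene differed by −0.51 at 6 h without overlap, and by −0.15 at 2 h with overlap. At 2 h it was 0.16 higher than sham in replicate 1, where the chosen probe set differed by −1.18, and −0.46 from sham in replicate 2.

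Kcnk2, a leak channel opened by stretch, fatty acids and volatile anaesthetics, had 7.04 and 7.55 in sham, 7.50 and 7.57 at 2 h, and 6.22 and 7.08 at 6 h. Both arrays at 6 h lay below both at 2 h, and 1 of them overlapped sham. The difference was −0.88 between the times (SE 0.4, unadjusted p = 0.0506, or 0.028 with the replicate block, adjusted p = 0.999) and −0.65 from sham at 6 h (unadjusted p = 0.135). Without replicate 1 at 6 h these were −0.45 and −0.22.

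Of the voltage-gated pores, Kcna5, a delayed rectifier known best from smooth muscle and heart, read 6.87 and 6.75 in sham, 7.90 and 7.61 at 2 h, and 8.10 and 6.77 at 6 h. Both arrays at 2 h lay above sham, by 0.94 in the mean (SE 0.444, unadjusted p = 0.0588, or 0.0297 with the replicate block, adjusted p = 0.999 in limma). The value at 6 h rested on replicate 1, for the difference of 0.62 became −0.05 without it. Kcna1, the low-threshold channel of axons, had 5.87 and 6.07 in sham, 4.52 and 5.82 at 2 h, and 5.51 and 5.70 at 6 h. All 4 ECS arrays lay below sham, and the difference at 2 h of −0.79 was −0.14 without replicate 1 at 2 h.

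The A-type channels Kcnd2 and Kcnd3 carry the transient current that delays firing. Kcnd2 spread widely within sham, at 6.60 and 8.39, and read 7.40 and 7.90 at 2 h and 7.47 and 8.14 at 6 h, so that the groups overlapped throughout on the chosen probe set. A second tested probe set of Kcnd2 read 8.08 and 7.68 in sham and 7.29 and 7.44 at 2 h. That is −0.52 without overlap (unadjusted p = 0.209, adjusted p = 0.999 in limma). On the third the difference at 2 h was 0.02, with overlap. Kcnd3 read 5.84 and 6.57 in sham, 5.24 and 6.07 at 2 h, and 6.92 and 6.47 at 6 h. It was 1.03 higher at 6 h than at 2 h (95% interval 0.04 to 2.03, unadjusted p = 0.0437, adjusted p = 0.999), and 0.62 to 1.44 higher with 1 array left out at a time. Kcnc4, a fast A-type channel, stayed between 8.48 and 8.81 in all 6 arrays.

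All 4 Kcnh genes, grouped by symbol as the EAG and ERG type, were lower at 2 h than in sham, with a median difference of −0.45. All 4 were higher at 6 h than at 2 h, with a median of 0.57. These comparisons share the arrays at 2 h. None of the 8 differences passed the test. The direction at 2 h was the same under every scaling tried, but 2 of the 4 turned without replicate 2 of sham and 1 without replicate 1 at 2 h, which also turned 1 of the 4 between the times. Kcnh7, an ERG channel of neurons, read 5.61 and 5.60 in sham, 4.38 and 4.93 at 2 h, and 5.07 and 5.37 at 6 h. Its difference at 2 h was −0.95 (SE 0.48, unadjusted p = 0.0743, adjusted p = 0.999), and it reached the array median in the sham arrays only, so it entered the test through the group in which it was highest. Kcnh3 likewise reached it only in replicate 2 of sham and of 6 h, and in no array at 2 h. Kcnh1, an EAG channel, read 6.30 and 7.22 in sham, 6.44 and 6.46 at 2 h, and 7.55 and 6.49 at 6 h, and was 0.57 higher at 6 h than at 2 h, or 0.03 without replicate 1 at 6 h.

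Accessory subunits included the brightest members. Kcnip1 and Kcnip4, calcium-binding partners of the A-type channels, read 8.64 and 8.77 (Kcnip1) and 8.45 and 8.19 (Kcnip4) in sham. At 2 h Kcnip1 read 9.03 and 8.64 and Kcnip4 8.50 and 8.27. At 6 h they read 8.77 and 8.63, and 7.80 and 8.36. Kcnmb4, the neuronal partner of the large-conductance calcium-activated channel, read 8.74 and 8.47 in sham, 8.81 and 8.76 at 2 h, and 8.67 and 8.37 at 6 h. The differences of these 3 genes from sham lay between −0.24 and 0.18 on the chosen probe sets. A dimmer tested probe set of Kcnip1 read 5.07 and 5.14 in sham, 5.78 and 5.82 at 2 h, and 5.01 and 5.09 at 6 h, which is 0.70 higher at 2 h without overlap (95% interval −0.28 to 1.67, unadjusted p = 0.146, adjusted p = 0.999 in limma).

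Kcnip3, which is also known as a calcium-regulated transcriptional repressor, had 6.44 and 6.86 in sham, 6.92 and 6.17 at 2 h, and 5.67 and 6.23 at 6 h. Both arrays at 6 h lay below sham, by −0.71 (SE 0.424, unadjusted p = 0.125, adjusted p = 1 in limma), and at 2 h the groups overlapped. Its second probe set, which was too dim to be tested, was lower at both times, by −1.13 at 2 h and −1.08 at 6 h, and so did not share the pattern at 2 h.

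**Figure D4:**
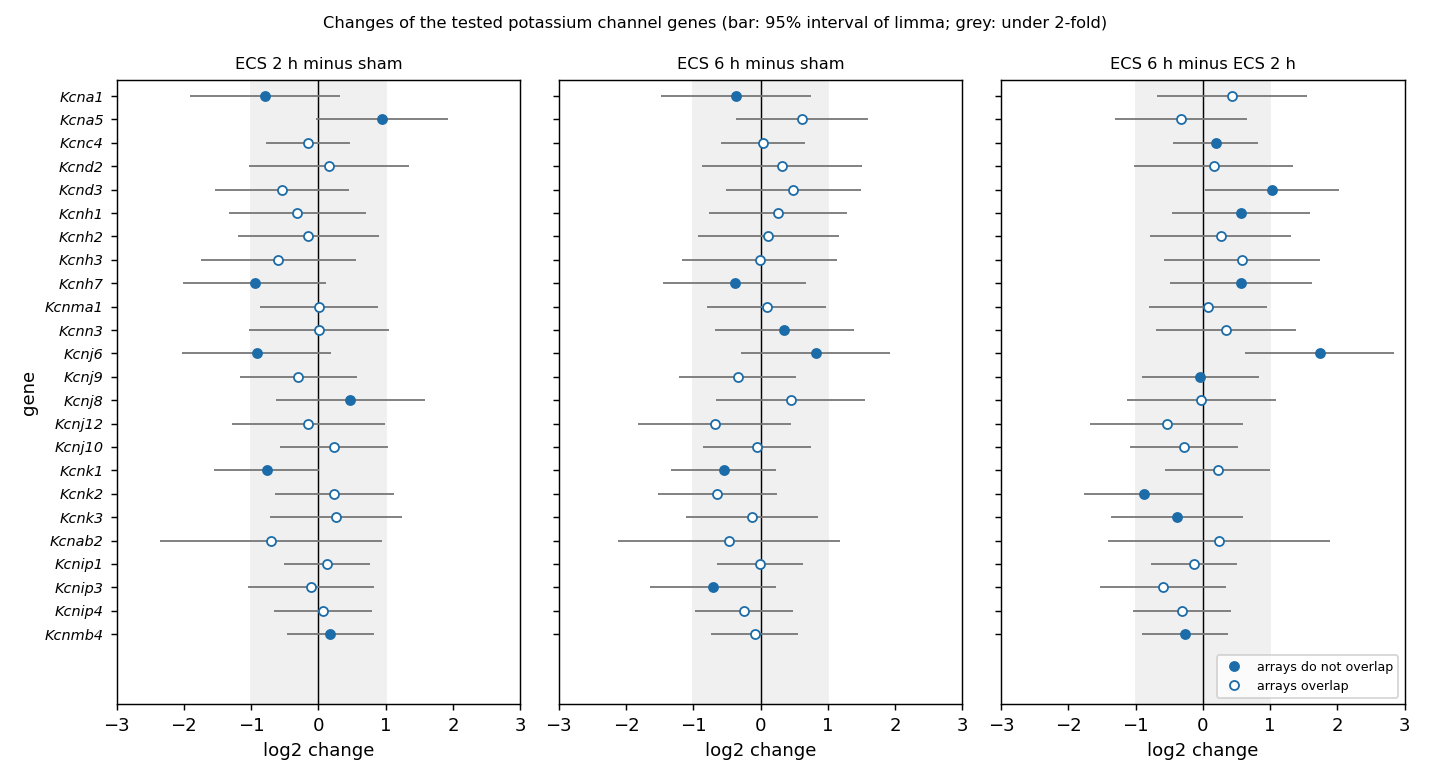
Log2 change (x axis) of the 24 tested potassium channel genes (y axis) in the 3 comparisons, with 95% intervals of limma as bars; filled points mark genes whose arrays do not overlap between the groups, and the grey band marks changes under 2-fold. Kcnj6 between the times, at 1.73, lies farthest from 0, and most intervals cross 0.

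Over all 62 genes the lean was small. At 2 h, 34 were lower and 28 higher, with a median difference of −0.08 against 0.01 over all genes. At 6 h, 33 were lower and 29 higher, with a median of −0.02 against 0.01. Between the times 33 were higher and 29 lower, with a median of 0.05 against 0.00. With the values as deposited, 44 of 62 (71.0%) were lower at 2 h against 54.8% after quantile normalization, and 22 (35.5%) were lower between the times against 46.8%. That scale also shifts all probe sets with 1 symbol, whose median was −0.06 at 2 h beside −0.12 for the 62 genes, and 0.10 between the times beside 0.14. The median at 2 h was 0.01 in replicate 1 and −0.22 in replicate 2, so the lean at 2 h was seen in 1 run. It also depended on the sham arrays. Without replicate 2 of sham, 31 of the 62 genes were lower at 2 h and 28 at 6 h. Without replicate 1 of sham, 40 were lower at 2 h and 40 at 6 h. The share lower over all genes was not computed with an array left out.

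Both arrays lay below both sham arrays in 16 of the 62 genes at 2 h (25.8%, background 16.2%) and above them in 7 (11.3%, background 16.7%). At 6 h the counts were 14 below (22.6%, background 14.8%) and 7 above (11.3%, background 16.1%). Between the times 14 lay higher at 6 h (22.6%, background 15.5%) and 8 lower (12.9%, background 15.4%). Each of the 3 comparisons shares arrays with the others, the 2 with sham the same sham arrays, so the counts are not separate observations. The 16 genes lower at 2 h were Kcna1, Kcna2, Kcnab1, Kcnab3, Kcnc1, Kcnh7, Kcnip2, Kcnj2, Kcnj3, Kcnj6, Kcnk1, Kcnk10, Kcnk4, Kcnq5, Kcns1 and Kcns2. Of these, Kcna1, Kcnh7, Kcnj6 and Kcnk1 passed the filter and the other 12 did not.

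On the chosen probe sets, differences of at least 2-fold without overlap were found in no gene in either comparison with sham. Choosing by deposited signal would change the probe set of Kcnmb2 only. That probe set did not pass the filter and lay 1.08 above sham at 6 h without overlap, at 6.24 and 4.92 against 4.19 and 4.80. The higher value at 6 h came from replicate 1. The background was 0.984% higher and 1.13% lower at 2 h, and 0.863% higher and 1.15% lower at 6 h. Between the times 3 genes were at least 2-fold higher at 6 h, Kcnj6, Kcnd3 and Kcnk10, a leak channel (4.84%, background 0.904%), and 0 were lower (background 1.09%). Kcnk10, named after its values were seen, did not pass the filter and read 4.09 and 4.04 at 2 h, near the floor, and 5.83 and 4.41 at 6 h.

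Outside the symbol rule, partner subunits, related cation channels, potassium transporters and receptors that act through these channels formed a list of 28 genes, of which 19 were found and 12 tested. None of the 12 passed at an adjusted p under 0.05 in any comparison. At 2 h 13 of the 19 were lower and 6 higher, at 6 h 13 lower and 6 higher, and between the times 14 higher and 5 lower. Over all genes on the arrays, 48.9% were lower at 2 h, 48.9% at 6 h and 49.7% between the times. Slc12a5, the neuronal potassium-chloride exporter that keeps chloride low for GABA, read 10.04 and 10.23 in sham, 8.92 and 9.58 at 2 h, and 9.10 and 9.83 at 6 h, all 4 below sham (−0.89 at 2 h, unadjusted p = 0.0167, adjusted p = 0.999 in limma). Cntnap2, which gathers Kcna channels beside the nodes of axons, read 8.38 and 8.32 in sham, 7.11 and 8.20 at 2 h, and 8.47 and 8.53 at 6 h. It was −0.70 from sham at 2 h, mostly from replicate 1, and 0.85 higher at 6 h than at 2 h (unadjusted p = 0.0489, adjusted p = 0.999 in limma). Of the 12 tested genes, Slc12a5 had the smallest p at 2 h and Cntnap2 between the times.

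Cell type markers also differed in mean between the groups, in directions that varied by list. Their part in the differences of the potassium channel genes was not tested. In tissue of mixed cells, fewer cells of a type and less RNA per cell cannot be told apart. All 10 general neuron markers were lower than in sham at 2 h and at 6 h, with a summed normalized signal of 12850 to 13610 in sham, 9236 to 9698 at 2 h and 10253 to 11760 at 6 h. All 5 markers of cortical and hippocampal neurons were lower at both times, at 719 to 833 in sham, 114 to 142 at 2 h and 158 to 566 at 6 h. Of 5 markers of PVN neurons, 4 were higher and 1 lower at both times, with sums of 3732 to 3783, 4519 to 4790 and 4526 to 5161. Oxt, the brightest, lay between 10.8 and 11.5 on the log2 scale in every array, and the lower one was Otp, by −0.70 at 2 h and −0.36 at 6 h without overlap. The 7 endothelial and mural markers were all higher at 2 h, and 6 of 7 at 6 h, at 831 to 1201, 1085 to 1272 and 974 to 1267. Of the 7 oligodendrocyte markers, 4 were lower at 2 h and 7 at 6 h, at 3300 to 3609, 2984 to 3084 and 2439 to 2673. Astrocyte markers summed to 3115 to 3537, 3178 to 3308 and 2962 to 3116, and microglial markers to 1063 to 1466, 1090 to 1332 and 1114 to 1482. The 4 ependymal and choroid plexus markers all fell short of the filter, at a sum of 24.3 to 41.3. None of the markers tested passed at an adjusted p under 0.05, and no marker was listed at 0 in all arrays.

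Array medians on the deposited scale ranged from 25.2 to 40.8. They were 25.6, 25.2 and 28.2 in replicate 1 and 40.8, 32.6 and 35.6 in replicate 2 (sham, 2 h and 6 h). Replicate 1 at 6 h stood apart, with a mean rank correlation with the other arrays of 0.887 against 0.906 to 0.919, and a Gapdh 3′ to 5′ signal ratio of 14.1 against 6.43 to 10.5. Without it, Kcnj6 differed by 1.12 from sham at 6 h and by 2.04 between the times. Replicates of the tested potassium channel genes differed by a median of 0.32 in sham, 0.53 at 2 h and 0.42 at 6 h on the log2 scale, and by over 2-fold in 2, 3 and 5 of the 24 genes.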

How the data were processed

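Intensity values were deposited by the authors as a table of all arrays, and the submitters' processing notes name MAS5 as the tool, without the version or the target it was scaled to. Labelled cDNA was amplified from 2 ng of total RNA per the labels' protocols. The 64 control probe sets were left out, 16 was added, and log2 values were quantile normalized over 22626 probe sets. The offset shrinks changes of dim probe sets. A probe set was tested when its deposited value was at or above the median of its array in at least 2 arrays, which left 12662 (56.0%). Differences were tested with limma 3.58.1 in R 4.3.3 (a mean per group over all 6 arrays, variance trend, two-sided, Benjamini-Hochberg adjustment over all 12662 probe sets at 0.05), which was tested on simulated data. Symbols came from the platform annotation, where 20380 probe sets carry 1 symbol, 691 several and 1555 none; all 90 probe sets of the Kcn genes matched RefSeq.

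Replicate numbers mark the runs on separate animals. Deviations of same-numbered arrays from their group means correlated at 0.229, 0.185 and 0.152 over the 3 pairs of groups, a weak pairing by run. The main fit does not use this pairing, and the block is an alternative that does. The labels state separate animals for the runs, and p-values measure the spread between pools. The number of arrays limits the precision.

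The genes, lists and tests were chosen with earlier results of these data known. Values in every array are given for Kcnj6, for the 8 genes of highest sham signal, for the 6 with the smallest p in each comparison and for any at least 2-fold apart from sham without overlap. Alternatives tried were the offset, scaling, filter, variance trend, array weights, block, arrays in the fit, choice of probe set and leaving out each array. The marker lists cover neurons, PVN neurons, cortical and hippocampal neurons, astrocytes, oligodendrocytes, microglia, endothelial and mural cells, and ependyma and choroid plexus.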

Additional observations from a re-analysis of the deposited data

Results flagged for a closer look

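Kcnj6 differed from sham in opposite directions at the 2 times: both arrays lay below sham at 2 h, by −0.92 in the mean, and both above it at 6 h, by 0.82. The difference between the times was tested in limma and gave 1.73 with an unadjusted p of 0.00563 and an adjusted p of 0.999, so it did not pass. The signal comes from 1 of the 5 probe sets of the gene. That probe set reached the array median in the sham and 6 h arrays only, the groups in which it was higher.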

How the results depend on the processing

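Potassium channel genes called numbered 0 in each comparison under all 18 alternatives, 1 of which (the probe set chosen by deposited signal) was added after seeing the data. Over all 12662 probe sets, where the count was 0, alternatives called at most 10 at 2 h (with either array at 6 h left out), 6 at 6 h and 3 between the times (both without replicate 2 at 6 h). With the replicate block 4 probe sets were called at 2 h, none of a potassium channel gene. In that limma fit 2 potassium channel genes (Kcnk1 and Kcna5) had an unadjusted p under 0.05 at 2 h against 0, and 3 between the times (Kcnk2 added) against 2. The share over all probe sets at that p was not computed with the block. At an adjusted p under 0.05 the block changed no call of a potassium channel gene.

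The number of genes at least 2-fold apart without overlap depended on the offset. Its share over all genes was computed at the main setting only. The counts below thus have no background beside them and are not read as a result about the potassium channel genes. With an offset of 1 these genes numbered 16 at 2 h, 13 at 6 h and 11 between the times, and with an offset of 64 there were 0 between the times. Values as deposited gave 1 at 2 h, and the probe set by deposited signal gave 1 at 6 h. With 1 array left out they ranged from 0 to 6 at 2 h, 0 to 6 at 6 h and 3 to 7 between the times. The median difference between the times was 0.121 with an offset of 1, 0.0233 with an offset of 64, 0.136 with values as deposited (where the median over all probe sets with 1 symbol was 0.0958), and 0.0253 to 0.0549 with 1 array left out. At a filter on the 75th percentile, 10 genes passed, without Kcnj6. Changes of the filter, variance trend, array weights or block left the differences as they were, so these settings could not turn one. Values of a gene that failed the filter under a setting were not counted. Of 305 values of named genes under alternatives, 1 turned, Kcna5 at 6 h, which ranged from −0.0469 (without replicate 1 at 6 h) to 1.29 with 1 array left out. The cause was not tested. With 1 array left out, the lone array of a group was assumed to vary like the other groups. Low signal near the offset limits what can be seen in the 38 genes not tested.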
